A study of Mus musculus with 36 samples.

Results

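The genes described here are 50 genes of mitosis and the spindle, taken by symbol, of which 49 were measured among 19938 genes. Each gene was read from a probe set that carries 1 gene symbol, and from the probe set with the highest mean where there were several, as for Top2a with 2. Ccnb1 had no such probe set and was not analysed here. The measurements are log2 levels on 36 Affymetrix whole-transcript arrays, and the cells were sorted from gonads pooled by sex. There are 12 groups of 3 arrays: a germ and a supporting cell group for XX and for XY fetuses at 11.5, 12.5 and 13.5 days post coitum (dpc), and the samples serve to follow both lineages before, during and after the gonads become ovary or testis. Germ cells, which later form eggs or sperm, were sorted by an Oct4 reporter in progeny of C57BL/6NJ on a mixed background at each stage and in both sexes. Supporting cells are the somatic cells from which testicular Sertoli cells and ovarian granulosa cells arise. XX supporting cells at all 3 stages and XY supporting cells at 11.5 dpc came from Tg(Sry-EGFP)92Ei mice, in which Sry sequences drive the green reporter, as progeny of CD-1. XY supporting cells at 12.5 and 13.5 dpc came instead from Tg(Sox9-cre/ERT2)1Msan/J mice, whose transgene follows Sox9, as progeny of C57BL/6; the labels name no fluorescent protein for that line. The XY to XX differences of supporting cells at 12.5 and 13.5 dpc, and the change of XY supporting cells from 11.5 dpc onwards, therefore cannot be told apart from reporter line and strain. The same holds for the difference between germ and supporting cells. The comparison of XY with XX supporting cells at 11.5 dpc, the stages of XX supporting cells and the step from 12.5 to 13.5 dpc in XY supporting cells each lie within 1 line and strain.

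Mitosis is run by cyclin-dependent kinase 1 (CDK1) with its cyclins, helped by the Polo-like and Aurora kinases. Kinesin motors build the spindle, kinetochores tie chromosomes to it, and the spindle checkpoint holds anaphase until each chromosome is attached, after which the anaphase-promoting complex, the midzone and the cytokinetic ring finish division. Most of these genes are transcribed in late S phase, G2 and M, so that their summed transcript level is commonly read as a sign of proliferation. In the fetal gonad, primordial germ cells divide until XX germ cells enter meiosis and XY germ cells arrest, while pre-Sertoli cells proliferate and pregranulosa cells largely leave the cell cycle.

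Most of the member promoters found carry letters known from cell cycle genes, although the members were taken by symbol and not by these letters. Cell cycle promoters often carry a CCAAT box, which the factor NF-Y binds, and a cell cycle genes homology region (CHR), through which MuvB complexes hold genes silent in resting cells and switch them on, with B-MYB and FOXM1, in G2 and M. RefSeq promoters (build GRCm38.p6, 250 bases before to 50 bases after the start) were found by symbol for 41 of the 49 measured members, with the first listed promoter used for each gene. Those of Aurkb, Ccna2, Cdc25c, Foxm1, Incenp, Kif20a, Smc4 and Tpx2 were not used here. The first 5 promoters below belong to central mitotic kinases, the checkpoint and the anaphase-promoting complex. Cdc25b was added after its values were seen, because its level did not follow the other members in supporting cells. Capitals mark CHR letters (TTTGAA or TTCGAA) and CCAAT letters on either strand, and each line runs 5′ to 3′ on the gene's own strand. Cdk1, the kinase itself, lies at chr10:69352863-69353162 on the minus strand and has 2 CHR and 3 CCAAT matches. Bub1, a checkpoint kinase, lies at chr2:127831810-127832109 on the minus strand, and Plk1, Polo-like kinase 1, at chr7:122159185-122159484 on the plus strand. Cdc20, the activator of the anaphase-promoting complex, lies at chr4:118437294-118437593 and Aurka, the spindle pole Aurora kinase, at chr2:172370521-172370820, both on the minus strand. Cdc25b, a phosphatase that activates CDK1, lies at chr2:131186698-131186997 on the plus strand.
Cdk1: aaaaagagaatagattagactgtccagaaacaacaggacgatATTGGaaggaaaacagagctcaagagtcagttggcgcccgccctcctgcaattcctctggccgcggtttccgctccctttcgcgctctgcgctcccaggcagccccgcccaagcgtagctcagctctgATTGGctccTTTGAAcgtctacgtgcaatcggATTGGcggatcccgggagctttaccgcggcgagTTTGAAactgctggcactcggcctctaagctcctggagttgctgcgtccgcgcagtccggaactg
Bub1: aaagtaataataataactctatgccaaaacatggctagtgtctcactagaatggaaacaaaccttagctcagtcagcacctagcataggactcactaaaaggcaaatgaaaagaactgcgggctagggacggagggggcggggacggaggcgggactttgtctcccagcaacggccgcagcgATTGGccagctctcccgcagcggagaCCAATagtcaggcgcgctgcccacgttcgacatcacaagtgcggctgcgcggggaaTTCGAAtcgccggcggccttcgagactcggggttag
Plk1: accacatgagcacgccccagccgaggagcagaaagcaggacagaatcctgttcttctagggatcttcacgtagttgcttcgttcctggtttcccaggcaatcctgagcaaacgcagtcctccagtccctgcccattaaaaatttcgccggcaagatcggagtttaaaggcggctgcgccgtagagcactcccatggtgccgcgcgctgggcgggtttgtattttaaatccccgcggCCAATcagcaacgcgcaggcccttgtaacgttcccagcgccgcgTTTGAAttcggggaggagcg
Cdc20: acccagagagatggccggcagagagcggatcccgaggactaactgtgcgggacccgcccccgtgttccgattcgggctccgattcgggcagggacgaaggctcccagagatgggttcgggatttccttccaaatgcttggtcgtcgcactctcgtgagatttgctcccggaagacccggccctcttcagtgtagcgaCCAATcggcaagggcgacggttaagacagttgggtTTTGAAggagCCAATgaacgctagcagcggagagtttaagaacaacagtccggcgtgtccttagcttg
Aurka: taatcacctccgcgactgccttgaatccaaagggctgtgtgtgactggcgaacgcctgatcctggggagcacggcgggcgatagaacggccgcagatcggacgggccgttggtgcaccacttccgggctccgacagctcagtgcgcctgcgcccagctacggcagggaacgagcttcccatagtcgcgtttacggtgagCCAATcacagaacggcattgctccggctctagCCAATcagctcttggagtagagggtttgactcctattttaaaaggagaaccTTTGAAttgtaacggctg
Cdc25b: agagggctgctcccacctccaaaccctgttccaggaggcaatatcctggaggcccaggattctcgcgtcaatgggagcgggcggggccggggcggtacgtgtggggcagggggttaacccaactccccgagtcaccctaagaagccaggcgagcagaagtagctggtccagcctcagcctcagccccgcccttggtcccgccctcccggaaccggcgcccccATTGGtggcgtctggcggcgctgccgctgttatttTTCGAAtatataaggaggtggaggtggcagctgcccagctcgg

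CHR letters were present in 32 of the 41 member promoters, or 78.0%, against 19.4% of all 27025 promoters of the same length. CCAAT letters, which do not overlap the CHR letters, were present in 28, or 68.3%, against 37.9%. Both were present in 27, or 65.9%, against 7.7% of all promoters, and 18, or 43.9%, held 2 or more CCAAT matches against 12.2%. A CHR match lay within 50 bases of the start in 30 members, or 73.2%, against 5.29% of all promoters. In Bub1 the CHR match began 14 bases after the start and the CCAAT matches began 68 and 42 bases before it, and in Aurka the CHR match began at 32 after and the CCAAT matches at 51 and 19 before. Neither set of letters was found for Birc5, Kif18a, Mad2l1, Melk, Ncaph, Nuf2, Nusap1 and Plk4, which is 19.5% of the members and 50.3% of all promoters. Anln, Kif15, Kif20b, Kif2c and Ndc80 had CHR letters without CCAAT letters, and Cenpe had the reverse. A match describes these letters in this window and is no evidence of binding.

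**Figure D1:**
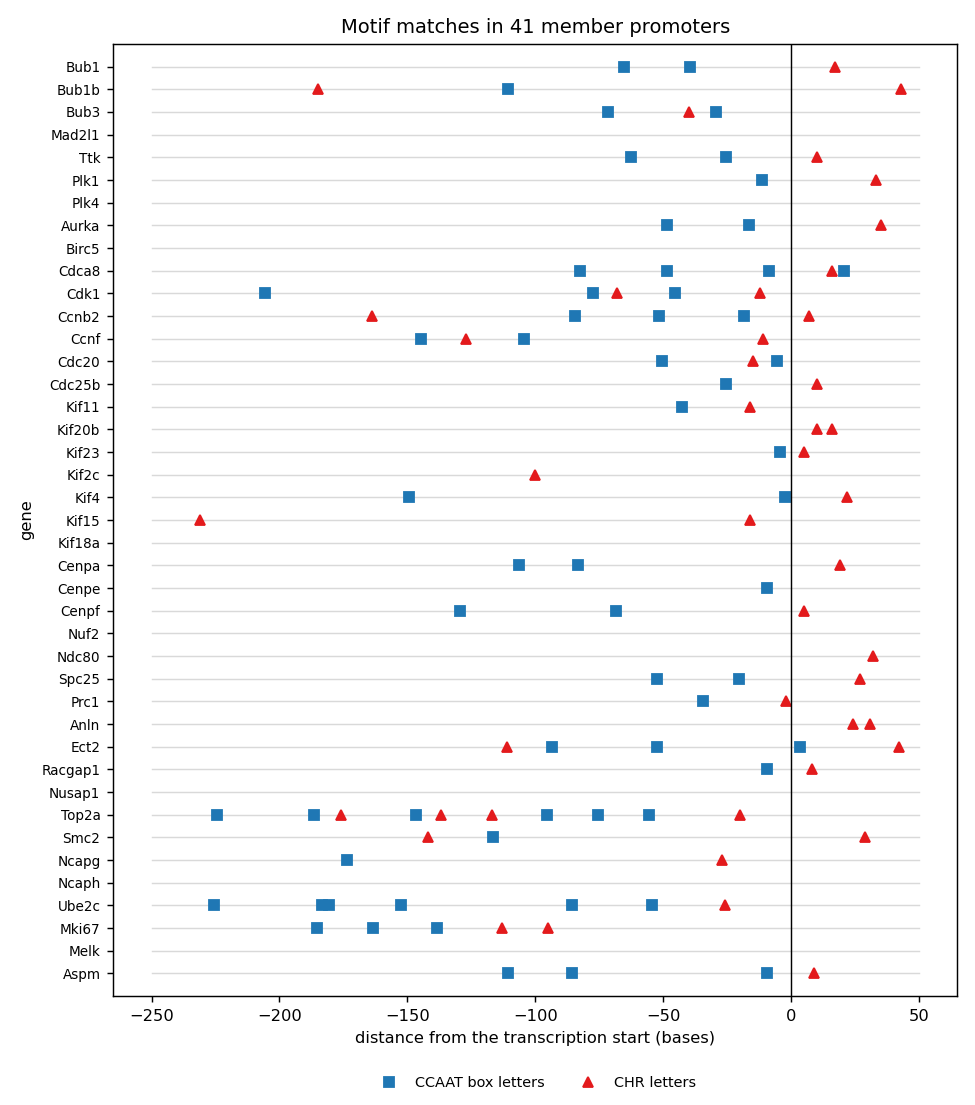
Matches to CCAAT letters (squares) and CHR letters (triangles) in the promoters of 41 members, each placed by its centre in bases from the transcription start (horizontal axis, start at 0). CHR matches gather near the start, with 30 of the 41 members holding a match within 50 bases of it, and 8 members hold neither motif.

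Before the comparisons, the sorted cells were checked against markers. The median level of 14 germ cell identity genes lay at 9.21 to 10.24 in the germ cell arrays used and at 6.58 or lower in the supporting cell arrays. The array labelled germ XX 12.5 dpc replicate 3 stood at 5.95, with the interstitial or stromal list at 9.29 and the pregranulosa list at 9.43, so it went against its label. This array was left out by a rule that came with the gene list, which leaves 2 arrays in that group. Its median level of the mitosis genes was 9.4, below the other germ XX 12.5 dpc arrays. The median of 10 Sertoli markers was 8.48 or higher in the XY supporting arrays and 7.36 or lower in the XX ones. All 10 were higher in XY at 12.5 and 13.5 dpc but 5 at 11.5 dpc, when Amh, the anti-Müllerian hormone gene, was at 5.77 to 6.3 in XY and 5.79 to 6.05 in XX. The median of 8 pregranulosa markers was 9.39 or higher in the XX arrays and 8.42 or lower in the XY ones, and 5, 6 and 7 of them were lower in XY at the 3 stages in turn. Lgr5 ran against the list at 11.5 dpc, at 9.03 to 9.5 in XY and 7.76 to 7.97 in XX. Foxl2, a defining gene of the granulosa lineage, was not set apart between them, at 6.04 to 6.57 in XX and 6.02 to 6.82 in XY supporting arrays. It lay at 5.68 to 6.85 in the germ cell arrays as well, so its probe set told no groups apart. The median over all genes lay between 6.54 and 7.01 in an array. Nothing in the labels says that arrays of 1 group stem from different litters or cell pools, and the p-values below reflect the spread among these arrays alone, part of which may be technical.

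The level of the mitosis and spindle genes was high in germ cells and low in XX supporting cells. In XY supporting cells it went from near the XX level to a level nearer that of germ cells. In germ cells the median of the 49 members lay at 9.6 to 10.47 across the 17 arrays. XX supporting cells stood lowest, with medians of 6.96 to 7.3 at 11.5 dpc, 6.39 to 7.09 at 12.5 dpc and 6.32 to 6.59 at 13.5 dpc. XY supporting cells started at 7.37 to 7.99 at 11.5 dpc, reached 9.36 to 9.72 at 12.5 dpc and stood at 9.03 to 9.15 at 13.5 dpc. The XY supporting medians lay above all XX supporting ones at each stage. At 12.5 dpc they reached past the lowest germ cell array, XY 13.5 dpc replicate 1 at 9.6, whose median over all genes was also the lowest, at 6.54. Germ cell arrays of 12.5 dpc itself stood higher, at 10.15 to 10.22 in XX and 10.24 to 10.47 in XY. Among the 6 supporting groups, XY 12.5 dpc had the highest mean for 48 members and XX 13.5 dpc the lowest for 45. Among the 6 germ cell groups, the lowest mean was at 13.5 dpc for 44 members, in XX for 28 and in XY for 16. The shares of all genes with such highest and lowest means were not counted. A higher level in pooled sorted cells can come from more cells in division or from more transcript in each, and arrays of this kind cannot tell these apart.

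**Figure D2:**
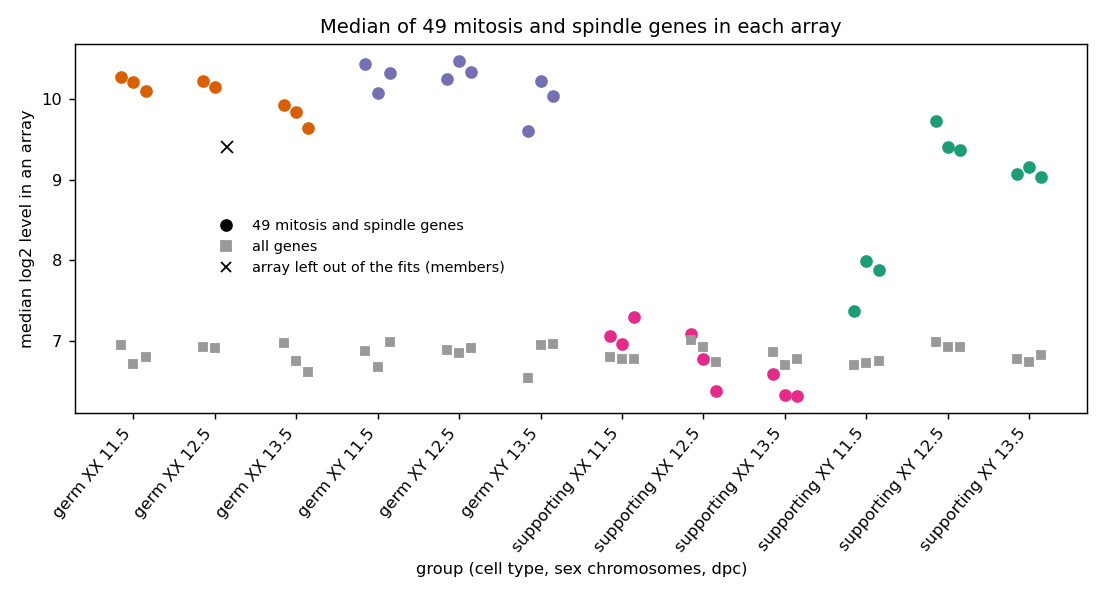
Median log2 level of the 49 mitosis and spindle genes (coloured dots) and of all 19938 genes (grey squares) in each array, by cell type, sex chromosomes and dpc. The cross is the germ XX 12.5 dpc array left out, at 9.4. The medians of XY supporting cells rise from 7.37 to 7.99 at 11.5 dpc to 9.36 to 9.72 at 12.5 dpc, while those of XX supporting cells stay at 7.3 or lower.

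Germ cells carried more of these transcripts than supporting cells when the 6 groups of each were averaged. The 2 cell types came from different reporter lines and strains, so this difference cannot be told apart from line and strain. All 49 members were higher in germ cells (limma, Benjamini-Hochberg adjusted over 19938 genes, adjusted p under 0.05), where 29.1% of all genes tested were higher and 18.1% lower. The median difference was 2.36 on the log2 scale, against 0.07 over all genes. Bub1, whose kinase marks centromeres for the checkpoint, ranged from 11.09 to 12.32 over the 17 germ cell arrays, with a median of 11.61. In the 18 supporting arrays Bub1 ranged from 5.77 to 9.8, with a median of 7.27. The ranges of Bub1 did not overlap, and the difference was 3.92 (standard error, SE, 0.10; 15.1-fold; adjusted p = 4.2e-36). Anln encodes anillin, the scaffold of the cytokinetic ring, and ranged from 9.89 to 10.62 in germ cells and from 5.65 to 9.05 in supporting cells, a difference of 3.19 (SE 0.08; adjusted p = 2.36e-36). These 2 genes had the smallest p-values of the list. Ttk, the kinase that starts the checkpoint signal, differed by 3.47, the kinetochore protein gene Cenpf by 3.61, the condensin subunit gene Ncapg by 3.49, and the motor genes Kif11 and Kif18a by 3.23 each.

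The smallest difference from germ to supporting cells was that of Cdc25b, at 0.31 (SE 0.08; 1.24-fold; adjusted p = 0.00144). It ranged from 6.52 to 7.7 in germ cells and from 6.34 to 7.27 in supporting cells, so that its ranges overlapped widely. Bub3, a checkpoint protein that also acts outside mitosis, came next at 0.75 (SE 0.09), and Racgap1, Foxm1 and Aurkb followed at 1.23, 1.38 and 1.43. By role, the median difference ran from 1.66 for the 8 genes of CDK1, cyclins, CDC25 phosphatases and the anaphase-promoting complex to 2.75 for the 5 checkpoint genes. Separation over all arrays was less common. For 14 members each germ cell array lay above each supporting array, against 3.28% of all genes. For 32 members the 6 germ cell means lay above the 6 supporting means, against 11.7% of all genes. Among the others was Cdk1, which stood at 10.63, 10.65 and 10.93 in XY supporting cells at 12.5 dpc, level with germ cells of the same stage at 10.87 and 10.55 in XX and at 10.42, 10.91 and 10.76 in XY.

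**Figure D3:**
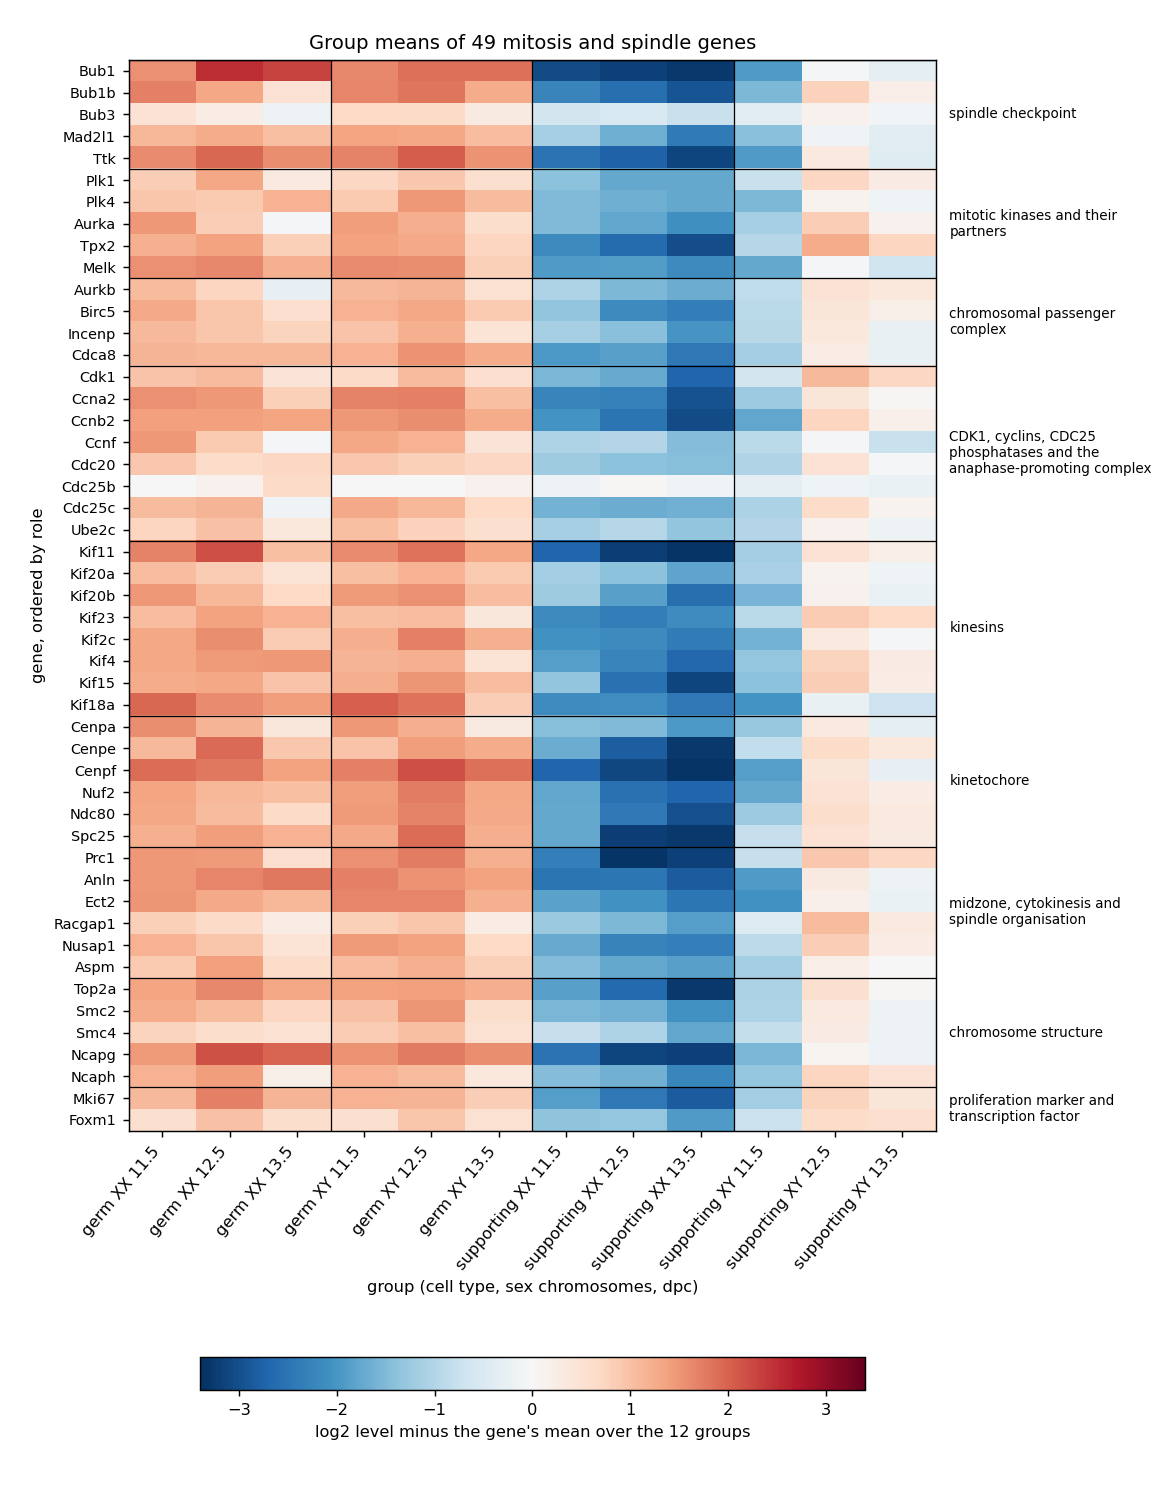
Mean log2 level of each of the 49 members in the 12 groups, shown as the difference from the gene's own mean over the 12 groups (colour) with genes in rows by role. Germ cell columns are red and XX supporting columns blue for most rows. XY supporting columns turn from blue at 11.5 dpc to pale at 12.5 and 13.5 dpc, and Bub3 and Cdc25b stay pale across the columns.

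In supporting cells at 11.5 dpc, within a single reporter line and strain, part of the list was already higher in XY than in XX. Of the 49 members 13 were higher and 0 lower (limma, adjusted p under 0.05), against 1.62% of all genes higher and 1.71% lower, with a median difference of 0.51 against −0.06 over all genes. Kif11, the motor that pushes spindle poles apart, stood at 7.37, 7.99 and 8.2 in XY and at 6.03, 6.13 and 6.85 in XX. The Kif11 arrays did not overlap, and the difference was 1.52 (SE 0.26; 2.86-fold; adjusted p = 4.3e-05). Prc1, which bundles the microtubules of the midzone, stood at 6.98, 8.0 and 8.77 in XY and at 6.77, 6.19 and 6.12 in XX, a difference of 1.55 (SE 0.28; adjusted p = 9.94e-05). The midzone motor gene Kif23 differed by 1.23, Tpx2, which activates Aurora A, by 1.20, and Bub1 by 1.11. Ccna2, the S and G2 phase cyclin, differed by 1.00, Cdk1 by 0.93 and the kinetochore motor gene Cenpe by 0.87. The other 5 were Spc25, Nusap1, Ncapg, Cenpf and Cdca8, with differences of 0.79 to 0.95. The kinetochore group held 3 of the 13 among its 6 genes, and neither Mki67 nor Foxm1 passed the test. Arrays of the 2 sexes did not overlap for 21 members, all higher in XY, against 6.24% of all genes.

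The count at 11.5 dpc moved with single arrays and with scaling. It was 6 when XX replicate 1 was left out and 7 when XX replicate 2 was. Leaving out XY replicate 2 gave 5 and leaving out XY replicate 3 gave 8, with 0 lower in each case. With the array that went against its label put back the count was 5, with a fit of only the 6 arrays compared 4, after quantile normalisation 21, and with the interleaved row sets of each array aligned 27. Kif20b and Mad2l1, a motor and a checkpoint gene, had the lowest differences, at −0.37 and −0.30, and did not pass the test.

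At 12.5 dpc nearly the whole list was higher in XY than in XX supporting cells, a comparison that coincides with reporter line and strain. Of the 49 members 48 were higher and 0 lower, against 8.49% of all genes higher and 4.89% lower, and the median difference was 2.58 against 0.04 over all genes. Prc1 stood at 9.79, 9.46 and 9.54 in XY and at 5.79, 4.81 and 5.49 in XX, a difference of 4.23 (SE 0.28; 18.8-fold; adjusted p = 9.09e-18). Tpx2 stood at 10.65, 9.65 and 9.79 in XY and at 6.36, 6.2 and 5.89 in XX, a difference of 3.88 (SE 0.25; adjusted p = 5.19e-18). Cenpe had the smallest p-value, with a difference of 3.42 (SE 0.22; adjusted p = 4.95e-18). Each XY array lay far above each XX array for these genes. Kif11 differed by 3.69, the kinetochore gene Spc25 by 3.68 and Cenpf by 3.51. Among the others, Ccnb2, a B-type cyclin, differed by 3.20, Top2a, the topoisomerase that untangles sister chromatids, by 3.19, and the proliferation marker gene Mki67 by 3.17. Cdk1 differed by 2.82, Aurka by 2.60, Plk1 by 2.43, Aurkb by 2.01, Aspm, a spindle pole gene, by 1.96, Foxm1 by 1.92 and Cdc20 by 1.88.

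The single member that did not pass was Cdc25b, at 6.46, 7.0 and 6.5 in XY and 7.27, 6.61 and 6.65 in XX, a difference of −0.19 (SE 0.20; limma adjusted p = 0.716). Its promoter, printed above, holds both CHR and CCAAT letters, as do those of Cdk1 and Bub1. Bub3 had the smallest difference of the 48 that passed, at 0.66. The arrays of the 2 sexes did not overlap for 48 members, against 13.1% of all genes. All 6 kinetochore genes passed, with a median difference of 3.22, and all 4 genes of the chromosomal passenger complex, the Aurora B module that corrects attachments, passed with a median of 2.04.

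At 13.5 dpc, with the same line and strain limit, 48 members were higher in XY supporting cells and 0 lower, against 7.21% of all genes higher and 5.02% lower, with a median of 2.48 against −0.02 over all genes. Cenpe stood at 9.52, 9.54 and 9.53 in XY and at 6.26, 5.7 and 5.7 in XX, a difference of 3.64 (SE 0.22; 12.5-fold; adjusted p = 5.63e-19). Ndc80, the kinetochore protein that grips microtubules, stood at 9.33, 9.58 and 9.48 in XY and at 6.2, 6.03 and 6.18 in XX, a difference of 3.33 (SE 0.21; adjusted p = 5.68e-18). Cdk1 stood at 10.24, 10.35 and 10.36 in XY and at 7.01, 7.26 and 6.55 in XX, a difference of 3.38 (SE 0.24; adjusted p = 1.16e-16). The groups did not overlap for any of these genes. Prc1 differed by 3.88, Tpx2 by 3.75, Spc25 by 3.58, Kif11 by 3.56, the spindle motor gene Kif15 by 3.37 and Mki67 by 3.24. Cdc25b again did not pass, at −0.09 (SE 0.20; limma adjusted p = 0.925). The arrays of the 2 sexes did not overlap for 48 members, against 17.8% of all genes.

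Markers of other cells were read beside these differences. At 12.5 dpc the summed level of the 14 germ cell identity genes, on the log2 scale, was 10.06 to 10.35 in XY and 9.95 to 10.55 in XX supporting arrays, and at 13.5 dpc 10.33 to 10.39 and 10.07 to 10.67. Of these genes Alpl, alkaline phosphatase, was higher in XY at both stages, at 7.11 to 7.45 against 6.17 to 6.79 and at 7.04 to 7.31 against 6.04 to 6.38, and Kit was lower at 13.5 dpc, at −0.95. Ddx4 and Dazl were at 6.75 or lower in each supporting array. Of 6 erythroid genes 3 were measured, and 1, the haem synthesis gene Alas2, was higher in XY supporting cells, at 7.58 to 8.02 against 6.88 to 7.4 at 12.5 dpc and at 7.3 to 7.69 against 6.63 to 6.94 at 13.5 dpc. The summed erythroid level overlapped between the sexes at both stages, at 9.61 to 11.7 against 7.62 to 10.97 and at 9.34 to 9.59 against 7.72 to 10.44. Of 10 interstitial or stromal genes 2 were higher and 1 lower in XY at 12.5 dpc, and 1 was higher at 13.5 dpc: Postn was higher at both stages, by 1.45 and 1.47, and Pdgfra higher by 0.80 and Nr2f2 lower, at −1.54, at 12.5 dpc. Of 18 meiosis genes 3 were lower in XY at 12.5 dpc and 4 at 13.5 dpc, among them Rec8 and Sycp3, and of 6 mesonephric or epithelial genes 1 was lower at 13.5 dpc. At 11.5 dpc, within 1 line, Pdgfra was higher in XY, at 9.54 to 9.85 against 7.66 to 8.15, and Nr2f2 lower, at 8.18 to 8.59 against 9.41 to 9.63. No germ cell identity, meiosis, erythroid or mesonephric gene passed the test at 11.5 dpc, and none of 6 endothelial and 5 macrophage genes passed at any of the stages. The part of these cell types in the differences of the mitosis genes was not tested.

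The sex difference of supporting cells widened from 11.5 to 13.5 dpc, and the widening itself was tested as an interaction. It was higher for 45 members and lower for 0 (limma, adjusted p under 0.05), against 2.71% of all genes higher and 1.55% lower, with a median change of 1.88 against 0.05 over all genes. Kif15 changed most, by 3.42 (SE 0.33; adjusted p = 9.86e-11), from overlapping arrays at 11.5 dpc, at 7.07, 8.04 and 7.51 in XY and 7.25, 7.77 and 7.76 in XX, to 8.96, 9.32 and 9.25 in XY and 6.19, 5.65 and 5.59 in XX at 13.5 dpc. Ccnb2 changed by 2.97, the kinetochore genes Nuf2 and Ndc80 by 2.94 and 2.81, Cenpe by 2.77 and Kif20b by 2.71. Kif11, which already differed at 11.5 dpc, changed by 2.04 and Bub1 by 1.83. The 4 members that did not pass were Ube2c, the ubiquitin-conjugating enzyme of the anaphase-promoting complex, at 1.02 (SE 0.35), Ccnf, an F-box cyclin, at 0.58 (SE 0.31), Bub3 at 0.41 (SE 0.31) and Cdc25b at 0.01 (SE 0.28). This interaction uses the XY 13.5 dpc cells of the Sox9 line, so it also cannot be told apart from line and strain.

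Both sexes contributed to the widening, and the XX share lies within 1 line and strain. From 11.5 to 13.5 dpc 16 members fell in XX supporting cells and 0 rose, against 1.73% of all genes that fell and 2.37% that rose, with a median of −0.64 against −0.03. Kif15 fell by 1.78 on the log2 scale (SE 0.24; adjusted p = 1.62e-07) between the XX values given above. Cenpe, at 7.34, 7.29 and 7.74 at 11.5 dpc and 6.26, 5.7 and 5.7 at 13.5 dpc, fell by 1.57 (SE 0.22; adjusted p = 5.82e-07). The 3 arrays of the stages did not overlap for either gene. Spc25 fell by 1.55, Top2a by 1.44, Kif20b by 1.35, Mad2l1 by 1.27, Ndc80 by 1.24, Cdk1 by 1.14, Birc5, the survivin gene of the passenger complex, by 1.03, Ccnb2 by 1.00 and Mki67 by 0.96. The other 5 that fell were Smc4, Incenp, Tpx2, Ncaph and Kif4, by 0.75 to 0.98. None of the 6 midzone, cytokinesis and spindle organisation genes passed, with differences of −0.83 to −0.34. For 31 members the later arrays lay wholly below the earlier ones, against 13.9% of all genes. The XX mean fell at each step for 37 members, against 16.9% of all genes. Of the 14 germ cell identity genes Dazl rose, by 1.15, and of 18 meiosis genes Smc1b, by 0.97. Of 10 stromal genes Nr2f2 and Pdgfra fell, at −1.46 and −0.96, and of 6 mesonephric or epithelial genes Krt18 rose, by 1.15. The part of these cells in the fall was not tested.

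XY supporting cells moved the other way from 11.5 to 13.5 dpc, across the change of line. Of the 49 members 46 rose and 0 fell, against 6.60% of all genes that rose and 2.27% that fell, with a median of 1.29 against 0.02. Anln stood at 6.76, 6.93 and 6.66 at 11.5 dpc and at 8.37, 8.65 and 8.52 at 13.5 dpc, a rise of 1.73 (SE 0.19; adjusted p = 1.18e-09). Ncaph, a condensin subunit gene, stood at 7.15, 7.42 and 6.81 and then at 8.79, 9.04 and 9.04, a rise of 1.83 (SE 0.23; adjusted p = 1.89e-08). The stages did not overlap for either gene, nor for 46 members in all, against 20.9% of all genes. Nuf2 rose by 1.99, Ccnb2 by 1.97, Ect2, the exchange factor that opens cytokinesis, by 1.83, the checkpoint gene Bub1b by 1.77, Kif23 by 1.61, Mki67 by 1.60, Bub1 by 1.59 and Ndc80 by 1.56. Smaller rises were those of Cdk1 at 1.31, Foxm1 at 1.29, Aurka at 1.27, Birc5 at 1.12, Plk1 at 1.03 and Cdc20 at 0.95. Those that did not pass were Bub3 at 0.27, Ccnf at 0.17 and Cdc25b at 0.07. Of the 14 germ cell identity genes 3 rose and 0 fell, Dppa3 by 1.72, Dppa5a by 1.14 and Alpl by 0.83. Their summed log2 level was 9.83 to 10.12 at 11.5 dpc and 10.33 to 10.39 at 13.5 dpc. Of 10 stromal genes Postn rose by 1.17, and Pdgfra and Nr2f2 fell, at −2.56 and −0.98. Of 3 erythroid genes 1 rose, and of 6 mesonephric or epithelial genes 2 rose and 1 fell. The part of these cells in the rise was not tested.

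Within the Sox9 line, the step from 12.5 to 13.5 dpc in XY supporting cells was compared as well, a contrast added after the data were seen. None of the 49 members passed the adjusted threshold in limma, where 0.777% of all genes were lower and 0.140% higher. An unadjusted p under 0.05 was found for 19 members and for 2616 of all 19938 genes. The differences ran from −0.74 for Racgap1 to −0.05 for Foxm1, all 49 below 0, with a median of −0.40. Most other genes were below 0 too, with 4364 of all 19938 genes above it. The median of all genes was −0.17 and moved by 0.15 to 0.17 under other scalings between or within arrays, and the member median was then −0.23 to −0.20. For 28 members the 13.5 dpc arrays lay wholly below those of 12.5 dpc, against 18.5% of all genes. Leaving out XY 12.5 dpc replicate 3 gave 1 member past the threshold, and aligning the row sets gave 2. Ttk, with the smallest p, stood at 9.82, 8.92 and 8.85 at 12.5 dpc and at 8.5, 8.55 and 8.36 at 13.5 dpc, a difference of −0.72 (SE 0.23; limma adjusted p = 0.142).

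**Figure D4:**
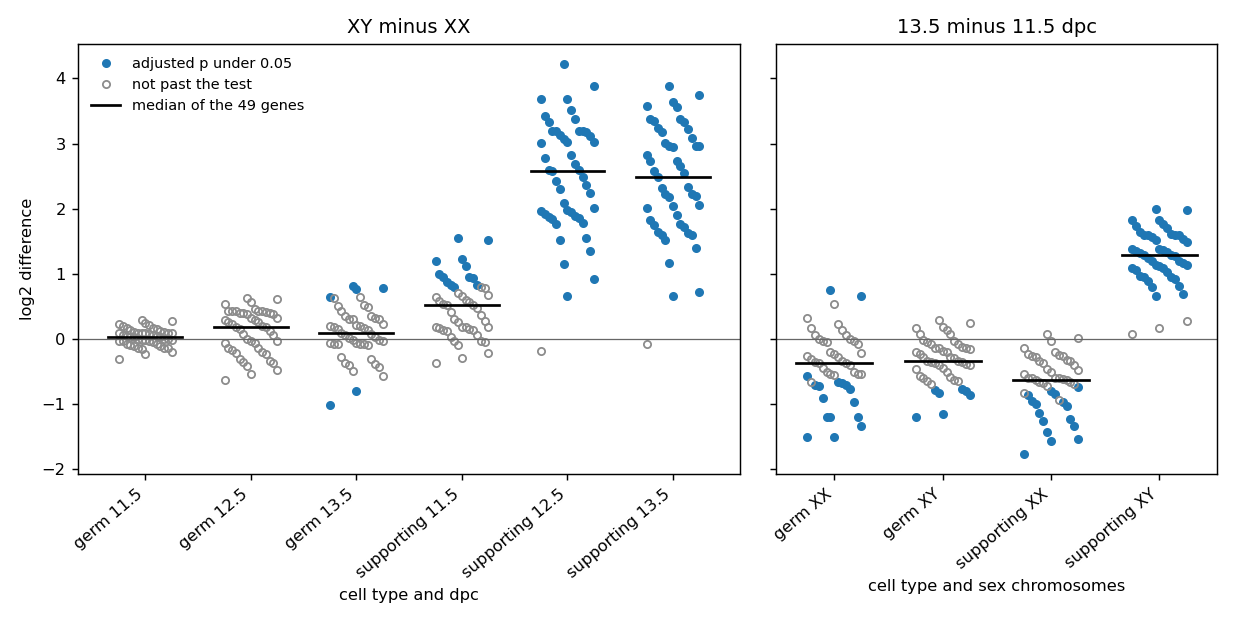
Log2 difference of each of the 49 members for XY minus XX by cell type and dpc (left) and for 13.5 minus 11.5 dpc by cell type and sex (right), with filled dots past an adjusted p of 0.05 and bars at the median. Germ cells scatter around 0 between the sexes, and supporting cells reach medians of 2.58 and 2.48 at 12.5 and 13.5 dpc with Cdc25b just below 0.

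Germ cells of the 2 sexes did not differ past the threshold in any member at 11.5 and 12.5 dpc. At 11.5 dpc 0 members passed the test in limma and 0 had an unadjusted p under 0.05, where 0.0251% of all genes were higher in XY and 0.00% lower. The differences ran from −0.31 for Cdk1 to 0.28 for Ube2c, with SEs of 0.19 to 0.31. At 12.5 dpc, with 2 XX arrays, 0 members passed, where 0.426% of all genes were higher and 1.37% lower. An unadjusted p under 0.05 was found for 6 members and for 2918 of all 19938 genes, so the member count lay near the background. The extremes were Bub1 at −0.63 and Ndc80 at 0.62, with SEs of 0.22 to 0.35. With the left-out array put back, 2 members passed, Ndc80 and Plk4. These p-values do not show that the sexes were equal.

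At 13.5 dpc 4 members were higher in XY germ cells and 2 were lower, against 5.28% of all genes higher and 3.93% lower, which is near the background. Cdc25c, a phosphatase that activates CDK1 at mitotic entry, stood at 8.03, 8.45 and 8.46 in XY and 7.59, 7.64 and 7.3 in XX, a difference of 0.81 (SE 0.21; adjusted p = 0.00776). Kif4, a motor on chromosome arms, stood at 8.42, 8.96 and 8.99 in XY and 10.03, 9.6 and 9.81 in XX, a difference of −1.02 (SE 0.24; adjusted p = 0.00277). Neither gene overlapped between the sexes. Kif4 lies on the X chromosome, and the part of X chromosome number in its sex difference was not tested. Bub1b was higher by 0.77, Aurkb by 0.78 and Ndc80 by 0.64, and Kif23 lower at −0.80. Leaving out XX replicate 2 brought the count of 6 to 3, and leaving out XX replicate 3 brought it to 2, both lower in XY. Leaving out XY replicate 2 gave 3, and leaving out XY replicate 3 gave 1, lower in XY. With the left-out array put back it was 2, with 1 in each direction, and with the row sets aligned 11, with 6 higher and 5 lower. The change of this sex difference from 11.5 to 13.5 dpc was tested too, and 0 members passed in limma. Of all genes 1.58% were higher and 1.65% lower. An unadjusted p under 0.05 was found for 7 members and for 2562 of all 19938 genes, so the member count lay near the background. The extremes of that change were Kif4 at −0.87 and Bub1b at 0.82, with SEs of 0.27 to 0.45. Quantile normalisation gave 1 member and aligned row sets gave 3 for that change.

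From 11.5 to 13.5 dpc part of the list fell in germ cells of both sexes. In XX 15 members fell and 2 rose, against 9.47% of all genes that fell and 5.83% that rose, with a median of −0.37 against −0.14 over all genes. Aurka stood at 10.92, 10.55 and 10.16 at 11.5 dpc and at 9.07, 9.35 and 8.65 at 13.5 dpc, and fell by 1.52 (SE 0.26; adjusted p = 1.73e-05). Ccnf stood at 9.59, 8.9 and 9.07 and then at 8.04, 7.56 and 7.42, and fell by 1.51 (SE 0.22; adjusted p = 5.56e-07). The stages did not overlap for these genes. Aurkb fell by 1.34, Bub1b by 1.21, Cdc25c and the centromere histone gene Cenpa by 1.20 each, Ncaph by 0.98, Birc5 by 0.71 and Ndc80 by 0.69. Prc1, Kif20b, Nusap1, Ccna2, Bub3 and Kif20a fell by 0.57 to 0.91.

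The 2 members that rose in XX germ cells were Bub1 and Cdc25b, a count near the 5.83% of all genes that rose. Bub1 stood at 11.27, 11.39 and 11.09 at 11.5 dpc, at 12.13 and 12.32 at 12.5 dpc and at 12.11, 12 and 11.89 at 13.5 dpc, a rise of 0.75 from first to last (SE 0.24; adjusted p = 0.0244). Cdc25b stood at 6.69, 6.87 and 6.83, then at 7.05 and 6.86, then at 7.42, 7.7 and 7.21, a rise of 0.65 (SE 0.20; adjusted p = 0.0185). For both genes the 13.5 dpc arrays lay above the 11.5 dpc arrays. Over the same stages all 18 meiosis genes of a marker list rose in XX germ cells, with list medians of 6.28 to 6.45 at 11.5 dpc and 9.31 to 10.08 at 13.5 dpc, and in XY germ cells 6 of the 18 rose, with medians of 6.15 to 6.66 and 7.47 to 7.9. Of the 14 germ cell identity genes 3 rose and 8 fell in XX, and 2 rose and 4 fell in XY. In each sex 1 of 10 stromal, 1 of 6 endothelial and 1 of 3 erythroid genes fell, among them the embryonic globin gene Hbb-y, at 9.04 to 10.25 and then 5.9 to 7.23 in XX and at 9.21 to 10.02 and then 6.55 to 7.39 in XY. The part of these genes and cells in the changes of the mitosis genes was not tested. The count of 17 members changed in XX was 11 without 11.5 dpc replicate 1, of which 0 rose, 9 without 13.5 dpc replicate 2, of which 0 rose, and 9 without 13.5 dpc replicate 3, of which 2 rose. With the left-out array put back 1 member rose and 11 fell. Aligning the row sets moved the median of all genes by 0.11, and the member median was then −0.24.

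In XY germ cells 7 members fell and 0 rose, against 4.20% of all genes that fell and 2.90% that rose, with a median of −0.34 against −0.03 over all genes. Kif18a, the motor that steadies chromosomes at the spindle equator, stood at 10.15, 9.96 and 10.13 at 11.5 dpc and 8.49, 9.13 and 9.01 at 13.5 dpc, and fell by 1.21 (SE 0.24; adjusted p = 0.000356). Cenpa stood at 10.63, 10.25 and 10.32 and then at 8.8, 9.47 and 9.43, and fell by 1.16 (SE 0.23; adjusted p = 0.000378). The stages did not overlap for either. Ccnf fell by 0.86, Aurka by 0.84, Ncaph by 0.81, Nusap1 by 0.79 and Melk, a kinase gene of proliferating cells, by 0.78. Cdk1, Bub1, Mki67 and Top2a did not pass the test here. The count was 2 without 11.5 dpc replicate 1 and 2 without 13.5 dpc replicate 1, 4 with the left-out array put back and 11 with the row sets aligned.

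**Figure D5:**
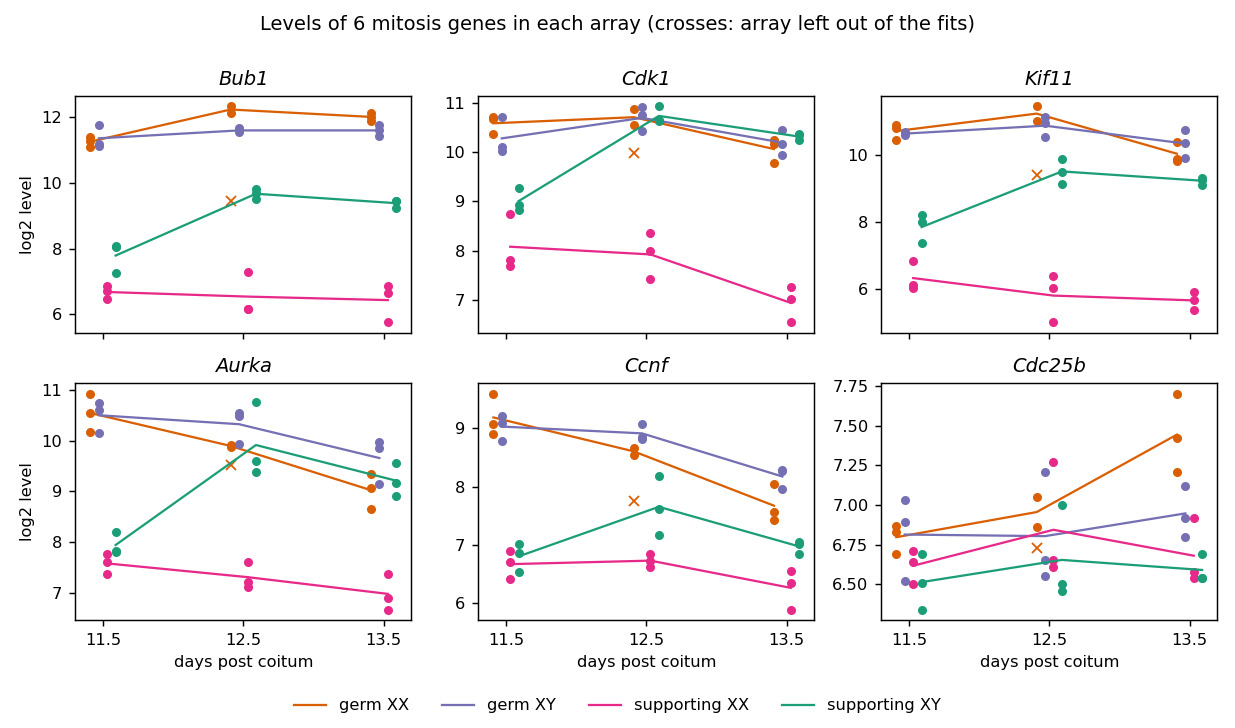
Log2 level of Bub1, Cdk1, Kif11, Aurka, Ccnf and Cdc25b in each array (dots) against dpc, with lines through the group means for germ XX, germ XY, supporting XX and supporting XY cells and crosses for the array left out. Cdk1 in XY supporting cells meets the germ cell level at 12.5 dpc, Aurka and Ccnf fall in germ cells, and Cdc25b spans 6.34 to 7.7 with overlapping groups.

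The germ minus supporting difference was followed in each sex. From 11.5 to 13.5 dpc it fell in XY for 46 members and rose for 0 (limma interaction), against 7.28% of all genes that fell and 2.54% that rose, with a median change of −1.57 against −0.05, and this change crosses reporter lines. Ncaph changed most, by −2.64 (SE 0.32; adjusted p = 1.98e-08), to a mean difference of −0.14 at 13.5 dpc, so that the germ cell mean ended below that of supporting cells. Kif18a followed at −2.54, from 4.07 to 1.54, then Tpx2 at −2.34, Ect2 at −2.30, Kif4 at −2.29 and Kif23 at −2.26, from 1.96 to −0.30. At 13.5 dpc the XY germ cell mean lay below the supporting cell mean for 6 members, Cdk1, Kif23, Tpx2, Racgap1, Ncaph and Foxm1, by 0.30 or less, and at 11.5 dpc for 0; these single-stage differences were not tested. Cdca8, Bub3 and Cdc25b did not pass, at −0.84, −0.64 and 0.06. In XX, with 1 line in each cell type, the difference rose for 7 members and fell for 2, against 3.29% and 5.55% of all genes. The count of falls thus lay near the background, and 14 members passed after quantile normalisation and 14 with row sets aligned. The 7 were Spc25 at 1.53, Kif15 at 1.49, Top2a at 1.43, Cenpe at 1.37, Ncapg at 1.21, Mad2l1 at 1.18 and Mki67 at 1.02, and the 2 were Cdc25c at −1.17 and Ccnf at −1.10. Whether the changes in XX and XY differ was not tested as such.

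Other genes of the same processes were read from lists that hold none of the 49 members. Of 69 other mitosis genes, 45 were higher in XY than in XX supporting cells at 12.5 dpc and 0 lower, where 8.49% of all genes were higher and 4.89% lower, and at 13.5 dpc 40 were higher and 2 lower, where 7.21% and 5.02% were. Knl1, which carries checkpoint proteins on the kinetochore, differed by 3.30 and 3.32, and Hmmr, a spindle assembly gene, by 3.37 and 2.99. At 11.5 dpc 3 were higher, Hmmr, Kif14 and Knl1, where 1.62% of all genes were. Of 40 DNA replication genes 25 were higher and 1 lower at both later stages, with medians of 0.79 and 0.80, and the ribonucleotide reductase gene Rrm2 was higher by 2.07 at 12.5 dpc and by 1.56 at 13.5 dpc. The gene that was lower at 12.5 dpc was Orc1, of the origin recognition complex, at −1.65, as it was at 11.5 dpc at −1.64. Orc1 fell in XX supporting cells by 2.54 from 11.5 to 13.5 dpc. It fell in XY supporting cells too, at −1.75 over the same stages, across the change of line, and at −0.89 from 12.5 to 13.5 dpc. In XY germ cells 14 replication genes fell from 11.5 to 13.5 dpc and 1 rose, Rrm2 most clearly at −1.64, and 10 other mitosis genes fell and 0 rose, where 4.20% of all genes fell and 2.90% rose. In XX germ cells 25 other mitosis genes fell and 3 rose, where 9.47% of all genes fell and 5.83% rose, so that the count of rises lay near the background. Among the 3 was Ccnb3, a cyclin known from meiosis, at 2.36 (SE 0.22; limma adjusted p = 7.63e-12). Ccnb3 was also the gene of these lists with the clearest sex difference in germ cells at 13.5 dpc, lower in XY at −1.58.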

How the data were processed

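RNA of sorted germ and supporting cells was measured on Affymetrix Mouse Gene ST arrays, 36 in all. The deposited values are on a log2 scale, 1 per probe set and array. RMA is the tool listed by the submitters' processing notes; its version is not given. In each array the table rows fell into 2 or 3 interleaved sets on slightly different scales (107 sets, medians 0.02 to 0.75 apart within an array) of unstated origin. The labels give no scan date or batch. The number of arrays limits the precision.

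A limma fit (version 3.58.1, R 4.3.3) of 35 arrays estimated 12 group means and left 23 residual degrees of freedom. P-values are two-sided and Benjamini-Hochberg adjusted over 19938 genes within a comparison, with a threshold of 0.05. No filter on dim genes was applied. A ratio is 2 to the power of the log2 difference, and an SE is the moderated error of a contrast. The members, gene lists and tests were chosen with earlier results of these data known. Named were 15 central members (1 of them, Ccnb1, not measured), in each comparison the 6 members with the smallest p and the 6 with the largest difference among those past the threshold, members against the majority or, where at least 4 in 5 passed, those that did not, and the 3 genes of smallest p from other lists. Other members named were chosen after their values were seen. On simulated data for XX supporting cells, 13.5 against 11.5 dpc (19938 genes), 88 of 100 genes changed by 1 and 100 of 100 changed by 2 on the log2 scale were recovered. The fit treated the arrays as unpaired. Correlations of deviations between arrays of the same replicate number ran from -0.52 to 0.20 over 29 pairs. Arrays of different numbers were not correlated, so this does not show whether replicate numbers pair the arrays. Alternatives were other scalings, all 36 arrays, aligned row sets, a replicate block, a filter on dim genes, the mean of probe sets, smaller fits and single arrays left out. Tables and plots used Python 3.11.15, numpy 2.4.6, pandas 2.3.3 and matplotlib 3.10.9.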

Additional observations from a re-analysis of the deposited data

Results flagged for a closer look

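Differences were tested against each other, as interactions, in 4 contrasts, and 3 gave members past the threshold. The XY minus XX difference of supporting cells changed from 11.5 to 13.5 dpc for 45 of the 49 members (limma, adjusted p under 0.05). All 45 were higher, against 2.71% of all genes higher and 1.55% lower. The germ minus supporting difference changed over the same stages for 9 members in XX and for 46 in XY gonads. In XX 7 rose and 2 fell, against 3.29% of all genes that rose and 5.55% that fell, so that the count of falls lay near the background. In XY all 46 fell, against 7.28% of all genes that fell and 2.54% that rose. The contrasts with XY supporting cells coincide with the change of reporter line and strain between 11.5 and 13.5 dpc, and the contrast in XX gonads does not. Groups of 3 arrays were not tested for single arrays that stand apart.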

How the results depend on the processing

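Counts of members past the threshold kept within 1.5 times of the reported count in all alternatives for germ against supporting cells, for supporting cells by sex at 12.5 and 13.5 dpc, and for the change of their sex difference. With all 36 arrays the count was 2 for germ cells by sex at 12.5 dpc, 2 at 13.5 dpc, 5 for supporting cells by sex at 11.5 dpc and 4 for XY germ cells by stage. Quantile normalisation gave 21 for supporting cells by sex at 11.5 dpc, 1 for the change of the germ cell sex difference and 14 for the change of germ minus supporting in XX. Aligned row sets gave 11 for germ cells by sex at 13.5 dpc, 27 for supporting cells by sex at 11.5 dpc, 11 for XY germ cells by stage, 3 for the change of the germ cell sex difference, 14 for the change of germ minus supporting in XX and 2 for XY supporting cells from 12.5 to 13.5 dpc. A fit of only the arrays compared gave 4 for supporting cells by sex at 11.5 dpc. The causes were not tested, and that last fit also rested on fewer arrays.

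Leaving out 1 array at a time gave 49 to 49 members for germ minus supporting, 0 to 0, 0 to 0 and 1 to 7 for germ cells by sex at the 3 stages in turn, and 5 to 14, 46 to 48 and 46 to 48 for supporting cells by sex. By stage the ranges were 9 to 19 in XX germ, 2 to 9 in XY germ, 11 to 18 in XX supporting and 39 to 44 in XY supporting cells, and 0 to 1 for the step from 12.5 to 13.5 dpc. For the changes they were 0 to 0 and 44 to 45 for the sex differences of germ and supporting cells, and 6 to 10 and 39 to 46 for germ minus supporting in XX and XY.

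Cdc25b, which did not pass the test there, changed sign: it was 0.00 at 13.5 dpc by sex in supporting cells with row sets aligned, and for the change of that difference -0.05 with arrays centred and -0.04 with quantile normalisation. With 1 array left out it ran from -0.36 to 0.02 by sex at 12.5 dpc, -0.16 to 0.03 at 13.5 dpc, -0.01 to 0.16 for XY supporting cells by stage, -0.08 to 0.13 for the change of the sex difference, and -0.09 to 0.17 for the change of germ minus supporting in XY. Of 362 reported single-gene differences, 350 past the threshold, 46 lost it with all 36 arrays, 20 with smaller fits, 15 with quantile normalisation and 7 with aligned row sets.

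The replicate block gave 17 members for XX supporting cells by stage in place of 16 and 45 for the change of germ minus supporting in XY in place of 46, and changed no other count of members. Each count rests on 3 arrays a group or fewer, and in simulated data differences of 1 on the log2 scale were recovered for 88 of 100 genes. Smaller differences were not simulated.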
